A study of Mus musculus with 23 samples.

Results

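The genes described here are 8 transcription factor genes known from the interneuron lineage: Lhx6, Sox6, Satb1, Maf, Dlx1, Dlx2, Dlx5 and Dlx6. They were named by symbol as a lineage group, with earlier results of these data known. Each symbol matched a single Ensembl gene, so the group held 8 of the 45706 gene identifiers in the count table, and 8 of 8 passed the filter on low counts that left 18823 genes for testing.

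Inhibitory interneurons of the cortex and hippocampus arise in the ganglionic eminences of the ventral forebrain and migrate to their final position. The Dlx homeobox genes act in their precursors as chromosomal pairs, Dlx1 with Dlx2 and Dlx5 with Dlx6, and promote the GABAergic programme. Lhx6, a LIM-homeodomain factor, follows in cells that leave the medial ganglionic eminence, the source of most somatostatin and parvalbumin interneurons, and Sox6, Satb1 and Maf act in the later maturation of those cells.

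The study sequenced polyA RNA of mouse hippocampus from 3 neuron populations, each from wild-type mice (WT) and from mice with Slm2 conditionally deleted (cKO). Slm2 is an RNA-binding protein that controls splicing, and its gene is listed as Khdrbs3. The CamK libraries (4 WT, 3 cKO) and the Grik libraries (4 WT, 4 cKO) were labelled as excitatory pyramidal cells, which the series describes as CA1 and CA3 populations. The SST libraries (4 WT, 4 cKO) were labelled as somatostatin-positive interneurons. The animals' age, the driver of the knockout and the way in which the RNA of each population was obtained are not given in the sources used here, and the labels do not say whether replicates came from separate animals, so that every p-value measures only the spread between these libraries, which may be technical.

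Between 87612006 and 112993538 reads per library were assigned to genes, with a median of 91378465. The summed markers fitted the population names. The level of 7 somatostatin interneuron genes was 6647 to 7472 CPM (counts scaled to the same library total) in the SST WT libraries. It was 74.5 to 183 in CamK WT and 137 to 154 in Grik WT. These 7 include Gad1, Gad2 and Slc32a1, genes of GABA synthesis and transport, and Sst alone varied widely between SST libraries (below). The sum of 4 CA1 genes was 1118 to 1531 CPM in CamK WT against 62.0 to 95.7 in Grik WT. That of 4 CA3 genes was 487 to 552 CPM in CamK WT and 1138 to 1633 in Grik WT. Khdrbs3 was lower in the cKO libraries of CamK (249 to 294 CPM against 356 to 413 in WT) and of SST (82.6 to 106 against 123 to 140). In Grik it was higher in the libraries labelled cKO (396 to 439 CPM) than in WT (327 to 347), against the label, so each genotype difference below is one between libraries labelled cKO and WT.

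The 8 genes lie on 5 chromosomes (build GRCm38, GENCODE annotation). Lhx6 (ENSMUSG00000026890) is at chr2:36081953-36105408 and Sox6 (ENSMUSG00000051910) at chr7:115470872-116038796, both on the minus strand. Satb1 (ENSMUSG00000023927) is at chr17:51736187-51833290 and Maf (ENSMUSG00000055435) at chr8:115682942-115707794, again on the minus strand. The Dlx genes form convergent pairs: Dlx1 (ENSMUSG00000041911, chr2:71528113-71533981, plus strand) ends 9426 bases from Dlx2 (ENSMUSG00000023391, chr2:71543408-71546754, minus strand), and Dlx6 (ENSMUSG00000029754, chr6:6863334-6868568, plus strand) ends 9236 bases from Dlx5 (ENSMUSG00000029755, chr6:6877805-6882085, minus strand). The antisense gene Dlx1as shares 335 exonic bases with Dlx1, and the antisense gene Dlx6os1 overlaps Dlx6 without a shared exonic base. Since no source used here states whether counting used strand, reads of Dlx1 and Dlx1as in the shared bases cannot be told apart.

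RefSeq promoter windows (build GRCm38.p6) were matched for 5 of the 8 genes, with no entry for Maf, Dlx5 and Dlx6. The windows of Lhx6, Dlx1 and Dlx2, the 250 bases before the RefSeq transcription start, are shown because the results turn on the contrast between the level of Lhx6 and the levels of the Dlx genes. They lie at chr2:36105409-36105658 (minus strand), chr2:71529195-71529444 (plus strand) and chr2:71546755-71547004 (minus strand), and capitals mark a GC box (GGGCGG, on the minus strand CCGCCC). The RefSeq start is the first base of the GENCODE gene for Lhx6 and Dlx2, but for Dlx1 it lies 1332 bases inside the GENCODE gene, so the Dlx1 window is upstream of the RefSeq start only.
Lhx6: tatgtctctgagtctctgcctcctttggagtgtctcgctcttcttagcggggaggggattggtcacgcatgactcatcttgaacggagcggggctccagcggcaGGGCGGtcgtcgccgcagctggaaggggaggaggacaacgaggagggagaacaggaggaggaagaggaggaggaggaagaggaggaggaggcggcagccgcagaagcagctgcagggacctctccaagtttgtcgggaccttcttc
Dlx1: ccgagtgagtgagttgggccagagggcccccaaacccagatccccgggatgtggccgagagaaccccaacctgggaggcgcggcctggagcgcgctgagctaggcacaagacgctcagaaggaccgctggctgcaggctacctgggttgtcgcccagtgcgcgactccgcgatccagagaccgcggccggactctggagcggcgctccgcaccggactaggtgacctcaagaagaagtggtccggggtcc
Dlx2: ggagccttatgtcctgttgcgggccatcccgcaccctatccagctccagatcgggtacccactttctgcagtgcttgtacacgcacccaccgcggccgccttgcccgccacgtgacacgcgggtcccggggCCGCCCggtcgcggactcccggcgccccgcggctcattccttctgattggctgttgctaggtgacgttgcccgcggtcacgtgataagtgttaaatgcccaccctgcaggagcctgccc
The Dlx1 window was 68.0% G and C with 22 CpG dinucleotides, the Dlx2 window 66.4% with 24 and the Lhx6 window 61.6% with 14, against medians of 52.4% and 6 over 32851 RefSeq windows of the same length. A GC box, searched on both strands, was in the windows of Lhx6 and Dlx2, and in 32.7% of all windows. The homeodomain core TAATTA (in 4.84% of all windows) and the TATA box TATAAA (in 12.4%), searched likewise and without overlap with the GC box, were in none of the 5 windows matched. A match of letters is a description of the sequence only.

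In wild-type libraries, each of the 8 genes was higher in SST interneurons than in either pyramidal population, and the SST libraries lay above the CamK and Grik libraries with no overlap for every gene. The difference ranged from 3.45-fold for Satb1 to 339-fold for Lhx6 over CamK. Of the 8 genes, 8 were called higher in SST WT than in CamK WT and 0 lower, at an adjusted p under 0.05 in edgeR's quasi-likelihood test with Benjamini-Hochberg adjustment over 18823 genes, where 30.5% of all genes were called higher and 29.5% lower. Against Grik WT, 8 were again called higher and 0 lower, beside 29.2% and 28.1% of all genes. The median log2 fold change of the group was 5.73 against CamK and 6.53 against Grik, where the medians of all genes were 0.02 and 0.03. In bulk libraries such as these, fewer cells of a type and less RNA of a gene per cell cannot be told apart.

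Markers of several other cell types were also higher in the SST libraries, and those of others were lower. All 4 genes of a parvalbumin interneuron list (Pvalb, Tac1, Kcnc1 and Syt2) were called higher than in CamK WT and than in Grik WT (edgeR), with sums of 515 to 699 CPM in SST WT, 68.4 to 90.1 in CamK WT and 127 to 147 in Grik WT. Pvalb, the calcium-binding protein gene that names those cells, averaged 140 CPM in SST WT against 1.05 in both pyramidal populations. The 4 endothelial genes were likewise called higher over both, at sums of 6.20 to 25 CPM in SST WT, 0.757 to 1.27 in CamK WT and 1.45 to 2.86 in Grik WT. Of the 5 astrocyte genes, 5 were higher than in CamK WT and 1 higher than in Grik WT, with sums of 53.6 to 105 CPM in SST WT, 9.01 to 20.99 in CamK WT and 50.9 to 60.9 in Grik WT. The 4 oligodendrocyte precursor genes were all higher than in CamK WT, and 3 of them were lower than in Grik WT. Of 5 oligodendrocyte genes, 4 were higher than in CamK WT and 3 lower than in Grik WT, and of 6 microglia genes, 4 were higher than in CamK WT and 0 were called against Grik WT. The 8 genes of a list for other interneurons (Vip, Htr3a, Cnr1, Cck, Lamp5, Adarb2, Sncg and Calb2) summed to 142 to 224 CPM in SST WT, below 450 to 541 in CamK WT and 745 to 903 in Grik WT. Of these, 4 were higher and 3 lower than in CamK WT, and 2 higher and 6 lower than in Grik WT. The 3 genes of Cajal-Retzius and dentate cells were lower than in both. None of these markers was at 0 reads in any of the groups, and the part of such cells in the levels of the members was not tested.

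Lhx6, the LIM-homeodomain factor of the medial ganglionic eminence lineage, read 298, 310, 299 and 264 CPM in the SST WT replicates 1, 2, 3 and 5. It read 0.715, 1.38, 0.271 and 1.07 CPM in the CamK WT replicates 2, 3, 4 and 5, and 0.699, 0.869, 1.10 and 0.867 CPM in the Grik WT replicates 3, 4, 5 and 6. The SST libraries were uniformly high and both pyramidal sets near 1 CPM. The log2 fold change was 8.40 (SE 0.30, adjusted p = 3.10e-15) over CamK and 8.37 (SE 0.30, adjusted p = 2.49e-15) over Grik in edgeR's quasi-likelihood test.

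Maf, a bZIP factor required for the normal production and maturation of medial ganglionic eminence interneurons, was next to Lhx6 in the size of its difference from CamK. It read 209, 191, 193 and 169 CPM in SST WT, 0.616, 0.842, 0.542 and 0.591 in CamK WT, and 1.21, 2.18, 1.56 and 2.24 in Grik WT. Here the pyramidal populations parted, with the 4 Grik libraries above the 4 CamK libraries. The log2 fold change of SST was 8.20 (SE 0.25) over CamK and 6.73 (SE 0.23) over Grik, with adjusted p = 7.87e-17 and 2.52e-16 in edgeR's test.

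Sox6, an SRY-box factor of postmitotic interneurons that also acts in oligodendrocyte precursors, read 36.3, 39.1, 54.3 and 62.1 CPM in SST WT. It read 0.693, 1.02, 0.520 and 0.766 CPM in CamK WT and 4.05, 4.43, 2.80 and 3.70 CPM in Grik WT. The ranking of the populations was SST, then Grik, then CamK, with no overlap between any of them. The log2 fold change of SST was 6.0 (SE 0.26, edgeR adjusted p = 1.93e-14) over CamK and 3.68 (SE 0.23, edgeR adjusted p = 5.49e-12) over Grik.

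Satb1, a chromatin-organising factor that promotes somatostatin interneuron maturation, differed from the rest in being well expressed in pyramidal cells. It read 322, 346, 380 and 407 CPM in SST WT, 106, 108, 105 and 104 in CamK WT, and 88.7, 90.6, 80.3 and 85.6 in Grik WT. The SST mean was 3.45-fold that of CamK (log2 1.79, SE 0.08, edgeR adjusted p = 5.95e-16) and 4.22-fold that of Grik (log2 2.08, SE 0.08, edgeR adjusted p = 3.66e-17).

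The Dlx genes, homeobox factors of the GABAergic programme, were steady within SST and uneven within CamK. Dlx1 read 188, 175, 172 and 181 CPM in SST WT, 0.859, 7.11, 1.41 and 8.13 in CamK WT replicates 2, 3, 4 and 5, and 1.25, 2.56, 1.75 and 2.57 in Grik WT. Dlx6 read 35.3, 31.0, 33.0 and 43.3 CPM in SST WT, 0.165, 2.15, 0.768 and 3.15 in CamK WT, and 0.0916, 0.232, 0.286 and 0.375 in Grik WT. Replicates 3 and 5 were the high CamK libraries for both genes. Dlx2 averaged 44.9 ± 3.37 CPM in SST WT, 0.818 ± 0.678 in CamK WT and 0.686 ± 0.214 in Grik WT (SD, n = 4), and Dlx5 averaged 29.4 ± 3.0, 0.571 ± 0.425 and 0.304 ± 0.146 CPM in the same order. The log2 fold change of SST over CamK was 5.35 (SE 0.53) for Dlx1, 5.78 (SE 0.47) for Dlx2, 5.68 (SE 0.45) for Dlx5 and 4.51 (SE 0.52) for Dlx6, and their edgeR adjusted p-values lay between 1.32e-09 and 4.81e-07. Over Grik it was 6.46 (SE 0.57), 6.03 (SE 0.48), 6.59 (SE 0.48) and 7.17 (SE 0.64).

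**Figure D1:**
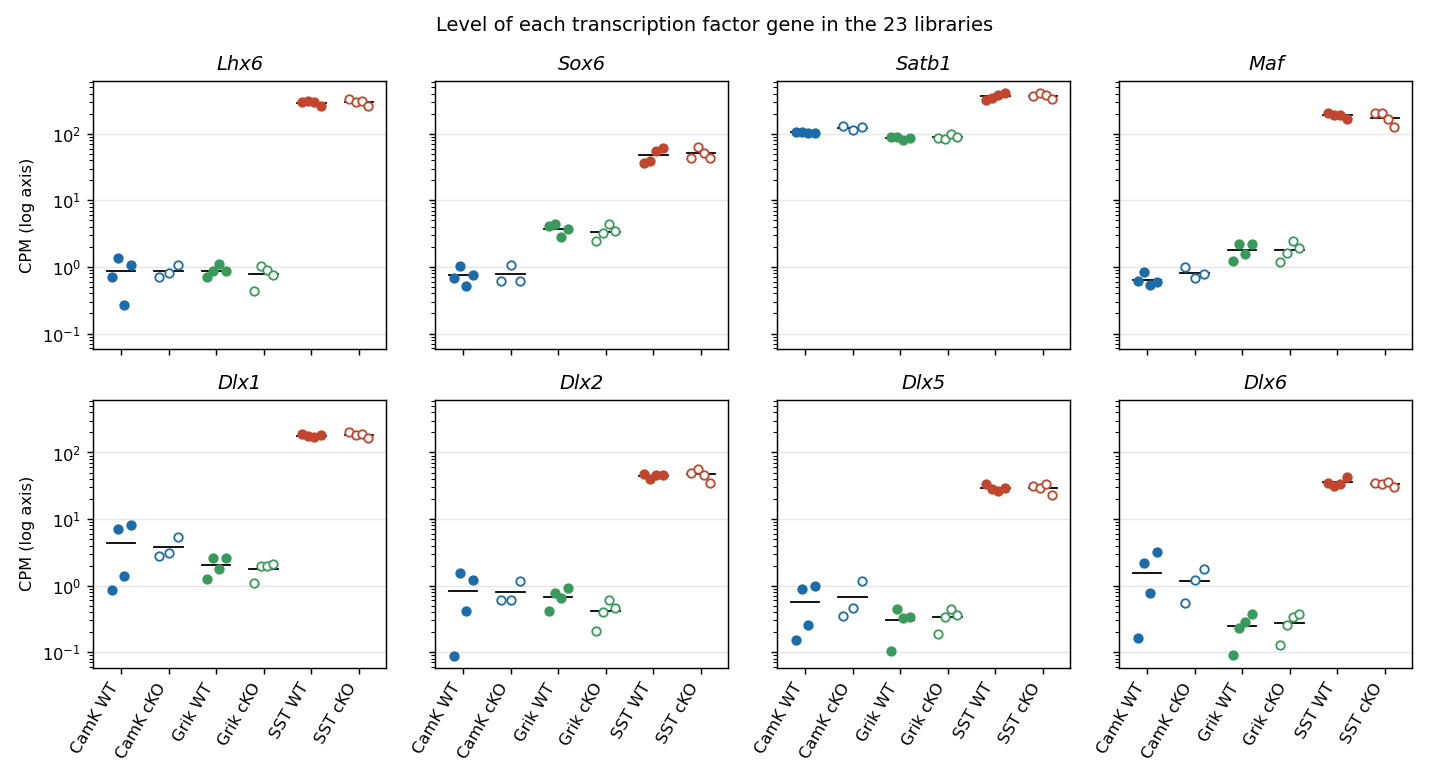
Level of each gene in CPM on a log axis, with 1 point per library, filled for WT and open for libraries labelled cKO, and a bar at the group mean. The SST libraries stand above both pyramidal populations for each of the 8 genes, Satb1 is near 100 CPM in pyramidal libraries, and the Dlx points spread most in CamK.

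The same comparison among the libraries labelled cKO gave the same picture. Of the 8 genes, 8 were called higher in SST than in CamK (29.4% of all genes in that direction, edgeR) and 8 higher in SST than in Grik (30% of all genes), with no overlap of libraries for any gene. The group's median log2 fold change was 5.75 over CamK and 6.65 over Grik, beside 0.04 for all genes in both. Lhx6 again differed most, at 8.46 (SE 0.34) and 8.61 (SE 0.30), and Satb1 least, at 1.60 (SE 0.08) and 2.07 (SE 0.08). Over CamK and over Grik, Maf was at 7.75 and 6.59, and Sox6 at 6.04 and 3.90. The Dlx genes lay at 4.84 to 5.88 over CamK and at 6.46 to 6.93 over Grik.

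**Figure D2:**
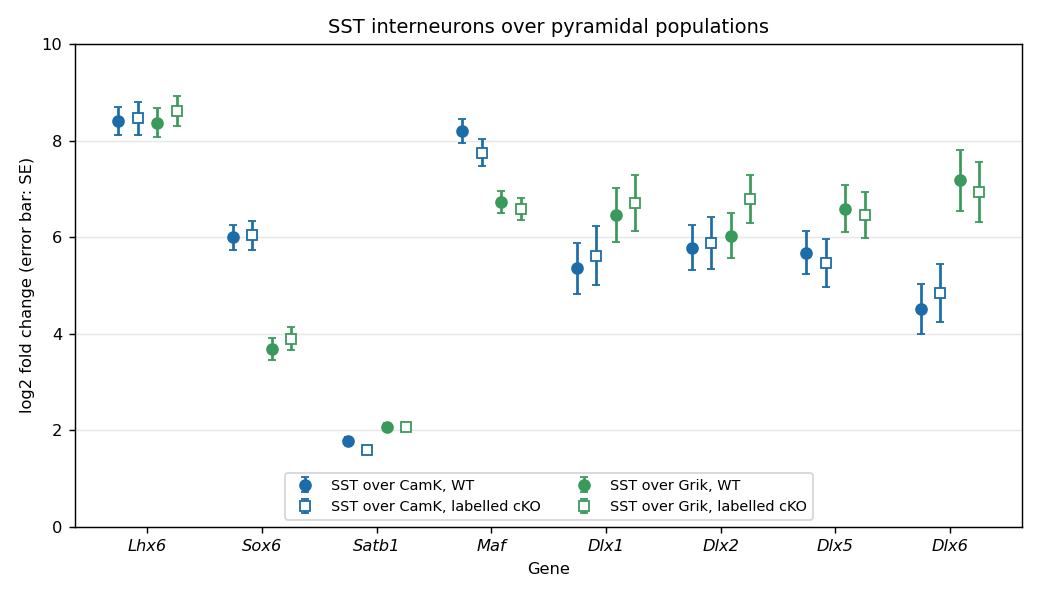
Log2 fold change of SST over CamK (blue) and over Grik (green) for each gene in WT libraries (circles) and in libraries labelled cKO (squares), with the standard error as the bar. Lhx6 lies above 8 in each of the 4 comparisons and Satb1 at about 2 or below, and Sox6, Maf and Dlx6 show the widest distance between the blue and the green points.

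Reads per gene depend on the length of the transcript, so levels of different genes were compared as CPM per kilobase of exon. In SST WT, Lhx6 stood first at 60.9 ± 4.21 CPM per kb (SD, n = 4) and Dlx1 second at 33.2 ± 1.32. Maf (23.1 ± 1.99) and Satb1 (19.1 ± 1.96) followed with overlapping ranges. Dlx2 (15.7 ± 1.18), Dlx6 (15.0 ± 2.27) and Dlx5 (13.0 ± 1.32) came next, each overlapping its neighbour, and Sox6 was last and apart at 3.23 ± 0.829 CPM per kb. In CamK WT and Grik WT the first gene was Satb1, at 5.55 ± 0.0971 and 4.54 ± 0.236 CPM per kb, with all of its libraries above those of Dlx1, the second gene in each (0.811 ± 0.699 and 0.377 ± 0.120). Below Satb1, the ranges of neighbouring genes overlapped throughout in both pyramidal populations.

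Expressed as a share of the SST WT mean level, the members differed in their pyramidal means, and the libraries overlapped for some members only. In CamK WT the libraries of Lhx6 and Maf overlapped, as did those of the Dlx genes. Those of Satb1 lay above all other members in both populations, and in Grik WT those of Sox6 lay above the rest. Lhx6 in CamK WT was at 0.294% of its SST level and Maf at 0.340%. The Dlx means were 2.45% for Dlx1, 1.82% for Dlx2, 1.95% for Dlx5 and 4.37% for Dlx6, carried by replicates 3 and 5. In replicate 2 the Dlx shares were 0.480%, 0.196%, 0.525% and 0.463%, with Dlx2 below the 0.244% of Lhx6 there, and without replicate 5 the Dlx6 mean was 2.88%. Sox6 was at 1.56% and Satb1 at 29.0%. In Grik WT the shares were 0.302% for Lhx6, 0.944% for Maf, 7.81% for Sox6, 23.7% for Satb1 and 0.690% to 1.53% for the Dlx genes. Functional genes of GABAergic and somatostatin cells are set beside these shares: over a list of 25, the median share was 5.62% in CamK WT (0.133% to 704%) and 2.83% in Grik WT (0.338% to 1254%). Gad2, an enzyme of GABA synthesis, was at 1.23% in CamK WT and 0.693% in Grik WT, and Slc32a1, the vesicular GABA transporter, at 1.55% and 0.821%. Gad1, the other GABA-synthesising enzyme, was at 2.30% and 1.89%, the neuregulin receptor gene Erbb4 at 2.23% and 4.17%, and the neuropeptide gene Sst at 0.560% and 0.815%. By its mean, Lhx6 was at a smaller share than each of these 5 genes in both pyramidal populations. The means of all 5 were below the list's median in CamK WT. In CamK WT the Lhx6 libraries (0.0926% to 0.473%) overlapped those of Slc32a1 (0.243% to 3.09%), Gad2 (0.282% to 2.23%) and Sst (0.388% to 0.772%). They lay below those of Gad1 and Erbb4 there, and below those of all 5 genes in Grik WT. Over the whole list, 1 had a smaller mean share than Lhx6 in CamK WT and 0 in Grik WT. The exception, named after its values were seen, was the neuropeptide gene Npy, at 0.133% in CamK WT and 0.338% in Grik WT. No test was made of the difference between shares.

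**Figure D3:**
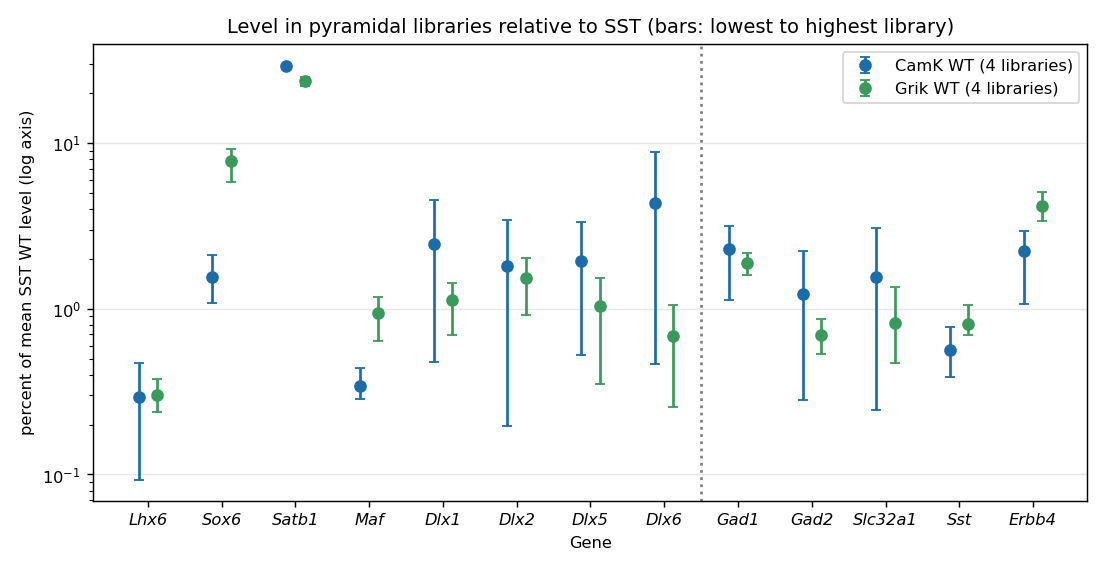
Mean level in CamK WT (blue) and Grik WT (green) as a percent of the SST WT mean on a log axis, with bars from the lowest to the highest of 4 libraries. The 8 members are left of the dotted line and 5 functional genes of inhibitory neurons right of it, with Lhx6 lowest and Satb1 highest among the members.

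The ratio of Dlx1 to Lhx6 reads was 0.565 to 0.687 over the 8 SST libraries, 1.59 to 2.96 over the 8 Grik libraries and 1.20 to 7.58 over the 7 CamK libraries, so the pyramidal libraries lay above all SST libraries. The reads behind the low values were few: Lhx6 had 24 to 125 reads per CamK library and 37 to 96 per Grik library, against 26183 to 36520 per SST library. Dlx2 reached its lowest count, 8 reads, in CamK WT replicate 2.

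The comparison of the pyramidal populations asks whether CA1-type and CA3-type cells differ in these factors. In WT libraries 2 of the 8 genes were called higher in CamK and 2 lower (edgeR, adjusted p under 0.05), beside 20.9% and 21.1% of all genes, and 4 did not pass. The median log2 fold change of the group was 0.27, that of all genes 0.01. Satb1 was 1.22-fold higher in CamK (log2 0.29, SE 0.07, edgeR adjusted p = 0.00258), with no overlap of the libraries given above. Dlx6 was higher by 2.66 on the log2 scale (SE 0.63, edgeR adjusted p = 0.00231), although its CamK replicate 2, at 0.165 CPM, lay inside the Grik range of 0.0916 to 0.375. Its 8 to 32 reads per Grik WT library were few, and without CamK WT replicate 5 the difference was 2.06 (edgeR adjusted p = 0.0128), within 2.06 to 3.04 over all alternatives.

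Sox6 was lower in CamK than in Grik, at a log2 difference of -2.32 (SE 0.25, edgeR adjusted p = 1.39e-07), and so was Maf, by -1.47 (SE 0.24, edgeR adjusted p = 4.10e-05). The libraries did not overlap for either gene. Markers of several other cell types moved with them, and those of others did not. The summed level of 4 oligodendrocyte precursor genes (Pdgfra, Cspg4, Olig1 and Olig2) was 46.6 to 77.9 CPM in Grik WT. It was 2.89 to 5.89 in CamK WT and 21 to 23.4 in SST WT. The sum of 6 microglia genes was 3.68 to 18.3 CPM in Grik WT against 1.65 to 4.72 in CamK WT, with overlapping ranges. Of these, Cx3cr1, P2ry12 and Csf1r were called lower in CamK WT (edgeR), whereas C1qa, C1qb and Tmem119 did not pass. The 5 oligodendrocyte genes summed to 684 to 924 CPM in Grik WT against 144 to 219 in CamK WT, and Mbp did not pass. All 5 astrocyte genes were called lower in CamK WT than in Grik WT, as were 5 of the 8 genes for other interneurons, with the sums given above. Of the parvalbumin list, Tac1 and Kcnc1 were called lower in CamK WT, Syt2 was 8.08-fold higher and Pvalb did not pass. The somatostatin interneuron sums overlapped. Among endothelial genes Flt1 was called lower, and Cldn5, Pecam1 and Ly6c1 did not pass. Of the Cajal-Retzius and dentate genes, Trp73 was lower, C1ql2 higher and Dsp not called. None of these markers was at 0 reads in either group, and the part of these cells in the Sox6 and Maf differences was not tested. The remaining genes did not pass: Dlx1 had a log2 fold change of 1.11 (95% interval 0.05 to 2.17, edgeR adjusted p = 0.0863), Dlx5 of 0.91 (-0.17 to 1.99), Dlx2 of 0.26 (-0.77 to 1.29) and Lhx6 of -0.03 (-0.68 to 0.61). The calls for Dlx1 and Dlx5 depended on single libraries: Dlx1 passed without CamK WT replicate 2 (1.45, edgeR adjusted p = 0.00834) or replicate 4 (1.40, adjusted p = 0.0255), and Dlx5 passed without replicate 2 (1.22, adjusted p = 0.0414).

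Among the libraries labelled cKO, 2 of the 8 genes were called higher in CamK than in Grik (17.4% of all genes) and 2 lower (18.3% of all genes), and they were the 4 genes called in WT. Satb1 (log2 0.47, SE 0.08), Sox6 (-2.14, SE 0.28) and Maf (-1.16, SE 0.26) had edgeR adjusted p-values of 3.78e-05, 2.10e-06 and 0.00111. Dlx6 was higher in CamK by 2.09 on the log2 scale (SE 0.67, edgeR adjusted p = 0.0202). Leaving out CamK cKO replicate 6 gave 1.66 with an adjusted p of 0.114, leaving out replicate 1 of Grik cKO gave 1.86 with 0.0563, and the fit blocked on replicate number gave 1.11 with 0.286, so the call did not hold in these 3 fits. Dlx1 (1.09), Dlx5 (0.999), Dlx2 (0.92) and Lhx6 (0.15) did not pass. The group's median was 0.69, that of all genes 0.00.

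The antisense neighbours of the Dlx genes did not follow their partners in this comparison. Dlx6os1 read 0.660, 1.58, 0.689 and 1.54 CPM in CamK WT and 2.79, 3.51, 2.12 and 3.45 in Grik WT, so it was lower in CamK with no overlap (log2 -1.40, SE 0.24, edgeR adjusted p = 6.84e-05), where Dlx6 was higher. The ratio of Dlx6 to Dlx6os1 reads was 0.25 to 2.04 over the CamK libraries, 0.0328 to 0.182 over Grik and 0.413 to 0.698 over SST. Dlx1as, chosen after its values were seen, was also lower in CamK (log2 -1.20, SE 0.36, edgeR adjusted p = 0.0109), with overlapping libraries. In SST WT both were high, at 69.0 ± 5.26 CPM for Dlx6os1 and 33.2 ± 2.81 for Dlx1as (SD, n = 4).

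Within CamK, the Dlx genes varied together from library to library. The highest CamK library exceeded the lowest 9.47-fold for Dlx1, 17.5-fold for Dlx2, 7.69-fold for Dlx5 and 19.1-fold for Dlx6, against 5.11-fold for Lhx6, 2.08-fold for Sox6, 1.81-fold for Maf and 1.26-fold for Satb1. The summed level of the 4 Dlx genes was 1.27, 11.7, 2.86 and 13.5 CPM in CamK WT replicates 2, 3, 4 and 5 and 4.33, 5.30 and 9.57 CPM in CamK cKO replicates 4, 5 and 6. The WT libraries therefore held both the lowest and the highest values, and the cKO libraries lay between them. The Pearson correlation within pairs of Dlx genes, on log2(CPM + 1) after subtracting the mean of each genotype group, was 0.92 to 0.97 over the 7 CamK libraries, 0.77 to 0.92 over 8 Grik libraries and 0.46 to 0.91 over 8 SST libraries, given as a description, since the values of a library share its depth and scaling. Maf and the 4 Dlx genes correlated at 0.82 to 0.98 over the Grik libraries, reaching the values of the Dlx pairs there. Over the CamK libraries Maf stood at 0.047 to 0.40 with them, and over the SST libraries at 0.055 to 0.84. In CamK the other pairs of members reached at most 0.80, below the Dlx pairs.

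Of 5 functional genes of inhibitory neurons examined, 3 followed the Dlx sum in the same 7 libraries. Gad2 read 5.33, 37.5, 7.94 and 42.0 CPM in CamK WT replicates 2, 3, 4 and 5 and 11, 26.9 and 32.4 in cKO replicates 4, 5 and 6, in the same order as the Dlx sum throughout. Slc32a1 did likewise, from 0.969 CPM in WT replicate 2 to 12.3 in WT replicate 5. Of 9 genes examined in this way, a choice made after the Dlx values had been seen, Gad2, Slc32a1 and Sst passed an exact permutation test. Here r was taken on log2(CPM + 1) over the 7 libraries together, without subtracting the means of the genotype groups. For Gad2, r was 0.96 and rho 1.0 (two-sided exact permutation p = 0.000198 and 0.000397, adjusted over the 9 relations 0.000893 and 0.00179), and r was 0.94 without WT replicates 3 and 5, the 2 libraries farthest from the median Dlx sum. For Slc32a1, r was 0.96 and rho 1.0 with the same p-values, and r was 0.95 without those libraries. For Sst, r was 0.96 and rho 0.93 (exact permutation adjusted p = 0.00417 and 0.0202), and r was 0.92 without them.

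The other members did not pass that test. Lhx6 had r = 0.75 and rho = 0.86 (exact permutation adjusted p = 0.0886 and 0.0536), and r was 0.56 over the 5 libraries left. Sox6 had r = 0.37, Maf 0.26 and Satb1 0.10, with adjusted exact permutation p-values for r of 0.517 to 0.818, and Gad1 (r = 0.75) and Erbb4 (r = 0.49) did not pass either. Over the 5 libraries left, r was 0.71 for Satb1, 0.48 for Maf, 0.13 for Sox6, 0.60 for Gad1 and 0.39 for Erbb4, so the value of Satb1 in particular rested on WT replicates 3 and 5. Among genes that averaged at least 1 CPM in CamK and spanned at least 4-fold there, the highest correlations with the Dlx sum were those of the transcription factor genes Sox1 (0.99), Sp8 (0.99) and Zic2 (0.98) and of the phospholipase-family gene Pld5 (0.99). These were picked by that value and have no test. Zic1, from the same list (r = 0.96), ran from 0.572 CPM in CamK WT replicate 2 to 21.7 in WT replicate 5, stayed at 0.724 to 4.80 in Grik, and ranged from 5.56 to 99.7 within SST, highest in WT replicate 5. The astrocyte gene Aqp4 had r = 0.32 and the myelin gene Mbp r = 0.08.

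**Figure D4:**
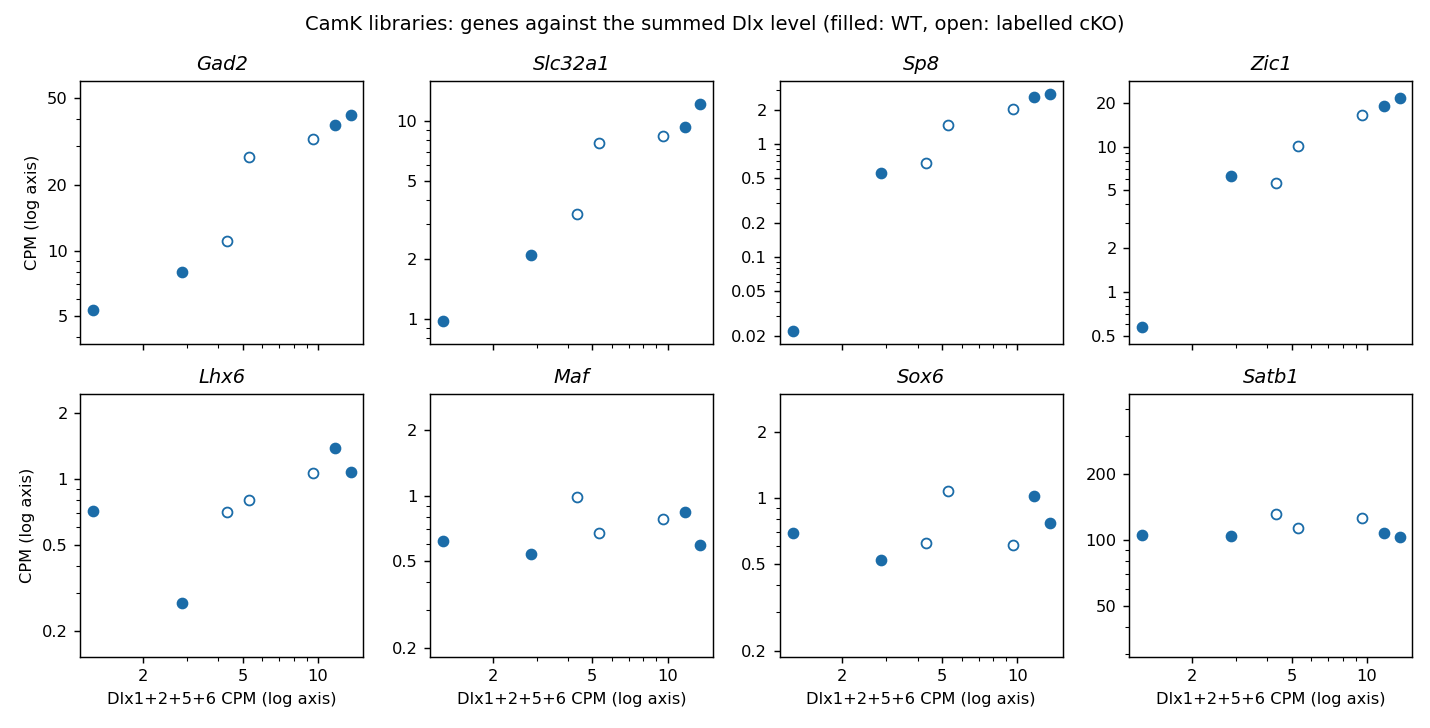
Level of 8 genes in the 7 CamK libraries against the summed CPM of Dlx1, Dlx2, Dlx5 and Dlx6, on log axes, with filled points for WT and open points for libraries labelled cKO. Gad2, Slc32a1, Sp8 and Zic1 are higher where the Dlx sum is higher. Sp8 and Zic1 were picked by that correlation and have no test, whereas Gad2 and Slc32a1 passed the exact permutation test. Lhx6, Maf, Sox6 and Satb1 in the lower row did not pass it.

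Within SST, the members were steadier than the neuropeptide that names the population. Over 8 SST libraries the highest exceeded the lowest 1.27-fold for Lhx6, 1.24-fold for Dlx1, 1.26-fold for Satb1, 1.42-fold for Dlx6, 1.49-fold for Dlx5, 1.63-fold for Dlx2, 1.67-fold for Maf and 1.75-fold for Sox6. Sst itself ranged 13.3-fold, at 1720, 159, 554 and 1557 CPM in WT replicates 1, 2, 3 and 5. Gad2 (1370 to 2187 CPM) and Slc32a1 (334 to 485 CPM) also varied less than Sst over these libraries. The narrow ranges were therefore not particular to the members. The library with the lowest Sst, WT replicate 2, had the highest Lhx6 of the WT libraries, at 310 CPM. Library cKO replicate 7 had the lowest Maf (125 CPM), Dlx1 (163), Dlx2 (34.8), Dlx5 (22.9) and Dlx6 (30.5) of the 8, together with the lowest Gad1 (2032) and Slc32a1 (334). Sox6 and Satb1 varied together, both lowest in WT replicate 1, while Sox6 and Lhx6 did not. The values of r were 0.93 and -0.33 over 8 libraries. They were taken on log2(CPM + 1) after subtracting the mean of each genotype group, as a description.

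The genotype comparison asks whether the level of these factors differed between libraries labelled cKO and WT in each population, where Khdrbs3 itself went against the label in Grik. None of the 8 genes was called between libraries labelled cKO and WT in CamK, in Grik or in SST by edgeR at an adjusted p under 0.05, and 0.0106% of all genes were called in each. DESeq2 and limma-voom also called 0 members. At an unadjusted p under 0.05 the counts were 1 of 8 in CamK (7.05% of all genes), 0 in Grik (4.88%) and 0 in SST (5.85%). The group's median log2 fold change was 0.01 in CamK, -0.06 in Grik and 0.04 in SST, beside 0.00, 0.00 and 0.02 for all genes.

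The member below the unadjusted threshold was Satb1 in CamK, which read 131, 114 and 126 CPM in cKO replicates 4, 5 and 6 against 106, 108, 105 and 104 in WT. The 3 cKO libraries lay above the 4 WT libraries, as they did for 3.35% of all genes. The log2 fold change was 0.23 (95% interval 0.07 to 0.39, edgeR unadjusted p = 0.00804, adjusted p = 0.611), and it was 0.19 to 0.29 over the alternatives, with adjusted p-values of 0.369 to 0.854. In SST, Satb1 read 369, 407, 386 and 336 CPM in cKO and overlapped WT, with a log2 fold change of 0.04 (-0.11 to 0.19).

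For the others, the intervals state how large a genotype difference these libraries leave room for. In SST the 95% interval of the log2 fold change was -0.38 to 0.48 for Lhx6, -0.34 to 0.50 for Sox6 and -0.48 to 0.24 for Maf. It was wider for the Dlx genes: -0.86 to 0.96 for Dlx1, -0.69 to 0.82 for Dlx2, -0.72 to 0.73 for Dlx5 and -1.0 to 0.84 for Dlx6. These intervals use a spread estimated over all 23 libraries. Fitted on the SST libraries alone, the standard error for Dlx1 was 0.08 in place of 0.43 and that for Dlx6 0.11 in place of 0.44, and no member was called. In CamK the change went the other way: fitted alone, the standard errors were 0.85 in place of 0.52 for Dlx1, 0.76 in place of 0.52 for Dlx2, 0.65 in place of 0.50 for Dlx5 and 0.89 in place of 0.56 for Dlx6. In Grik the standard errors fitted alone were smaller, at 0.24 in place of 0.53 for Dlx1 and 0.32 in place of 0.54 for Dlx2. Those of Dlx5 and Dlx6 in Grik were 0.40 in place of 0.56 and 0.42 in place of 0.78. From the fit over all libraries, the Dlx intervals in CamK reached from -1.59 to 1.26, narrower than the CamK libraries give by themselves. In Grik the same fit gave -1.83 to 1.80. For Lhx6 the interval was -0.70 to 0.68 in CamK and -0.85 to 0.46 in Grik, for Sox6 -0.58 to 0.66 and -0.60 to 0.32, and for Maf -0.26 to 0.92 and -0.43 to 0.46. That of Satb1 in Grik was -0.10 to 0.20.

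**Figure D5:**
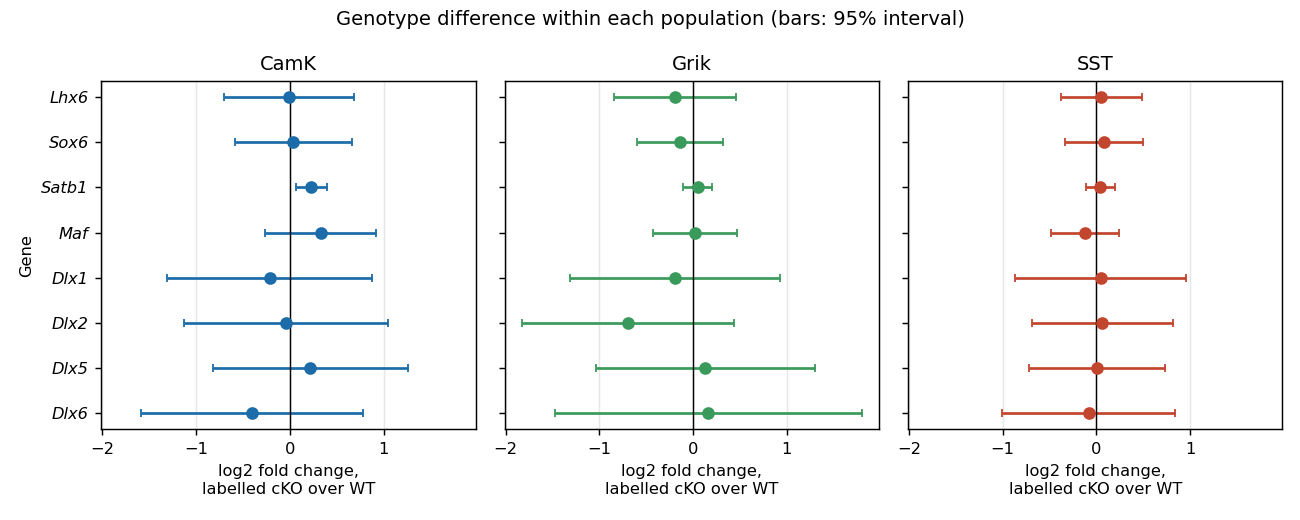
Log2 fold change of libraries labelled cKO over WT for each gene in CamK, Grik and SST, with the 95% interval as the bar. Each interval includes 0 except that of Satb1 in CamK, which runs from 0.07 to 0.39, and the Dlx intervals are the widest.

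Whether the genotype difference itself differed between populations was tested as an interaction. No member was called for CamK against Grik (0.00531% of all genes), CamK against SST (0%) or Grik against SST (0.0106%), and 0 of 8 had an unadjusted p under 0.05 in any of them, beside 6.5%, 7.85% and 3.86% of all genes (edgeR), with 0 members called by DESeq2 and by limma-voom. For Satb1 the CamK effect exceeded the Grik effect by 0.18 (95% interval -0.04 to 0.41) and the SST effect by 0.19 (-0.04 to 0.41) on the log2 scale. The other 7 members had interaction values of -0.57 to 0.66 for CamK against Grik, -0.33 to 0.45 for CamK against SST and -0.76 to 0.25 for Grik against SST, where Satb1 was at 0.0074, and each of their 95% intervals included 0.

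Among 31 other transcription factors of GABAergic lineages, 29 were tested, and 10 were higher, 13 lower and 6 not called in SST WT against CamK WT (edgeR), with a median log2 fold change of -0.01, beside 30.5% of all genes higher and 29.5% lower. Against Grik WT, 15 were higher, 9 lower and 5 not called, with a median of 0.65, beside 29.2% and 28.1% of all genes. The largest positive changes over CamK were those of Gsx2 (8.01, SE 0.53), a homeobox factor of ventral forebrain progenitors that had 0 to 4 reads per CamK WT library and 361 to 587 per SST WT library, Npas1 (7.84, SE 0.25), a bHLH-PAS factor of interneurons, and Nr2e1 (6.32, SE 0.29), an orphan nuclear receptor. Among the negative ones were those of Bcl11b (-3.03, SE 0.10), a factor of cortical projection neurons, and Etv1 (-2.98, SE 0.16), an ETS factor. None of the 29 was called between libraries labelled cKO and WT in any population by edgeR, with 3, 1 and 4 at an unadjusted p under 0.05 in CamK, Grik and SST (7.05%, 4.88% and 5.85% of all genes), and DESeq2 and limma-voom called 0.

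Of 25 functional genes of GABAergic and somatostatin cells, 21 were higher and 2 lower in SST WT than in CamK WT, and 18 higher and 4 lower than in Grik WT (edgeR), beside 30.5% and 29.5% of all genes over CamK and 29.2% and 28.1% over Grik. Gad2 had a log2 fold change over CamK of 6.34 (SE 0.61), Slc32a1 of 6.01 (SE 0.61), Gad1 of 5.44 (SE 0.28), Erbb4 of 5.48 (SE 0.38) and Sst of 7.48 (SE 0.65). The 8.40 of Lhx6 and the 8.20 of Maf exceeded each of these. Of the 25 genes, 1 exceeded both over CamK, which was Npy at 9.55 (SE 0.28). Over Grik, 0 of the 25 exceeded the 8.37 of Lhx6, with Npy at 8.21 (SE 0.26), whereas 8 of the 25 exceeded the 6.73 of Maf. The differences between genes were not tested.

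The genes whose pattern over the 23 libraries was most like that of each member were named by the Pearson correlation of log2(CPM + 1), among genes with at least 5 CPM in SST WT. The libraries fall into 3 populations, so these values mainly compare population levels. For Lhx6 they included Crhbp (0.998), which encodes a corticotropin-releasing hormone binding protein, and Lypd6 (0.998). Maf was most like Ets1 (0.998), Kcnmb2 (0.998) and Cdca7 (0.998). Sox6, with its intermediate level in Grik, was most like the interferon-induced genes Ifit3b (0.993) and Ifit3 (0.992) and AW551984 (0.991), where Ifit3 and Ifit3b are near-identical copies whose separate counts are uncertain. Satb1 was most like Esrrg (0.995), Arl4c (0.994) and Etl4 (0.994). Dlx1 was most like Slc32a1 (0.997), Gad2 (0.997) and Zcchc12 (0.996), and Dlx6 like Sox1 (0.996), Dlx1 (0.996) and Zcchc12 (0.995). Dlx2 and Dlx5 were each other's nearest gene (0.998), followed by Nxph1 (0.997) for Dlx2 and the NMDA receptor subunit gene Grin2d (0.997) for Dlx5.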

How the data were processed

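PolyA RNA-seq was measured in 23 libraries of 6 groups. The authors deposited 1 table of read counts per Ensembl gene, with a column for each library. Trimmomatic, STAR and build GRCm38 are named in the submitters' processing notes; versions, annotation release, strand setting and filters are not given in the sources used here. Summary rows that name no gene (12.4% to 18.4% of reads) were left out.

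All 6 groups were fitted together with edgeR 4.0.16 in R 4.3.3 (robust quasi-likelihood test, TMM scaling, filterByExpr, 17 residual degrees of freedom), with Benjamini-Hochberg adjustment over 18823 genes and a threshold of 0.05. CPM are TMM-scaled, intervals are 95%, and the test was checked on simulated counts. The members and lists were chosen with earlier results of these data known. Named genes beyond the members were Dlx6os1, up to 6 of the other transcription factors (the 3 largest changes each way among those called in SST WT against CamK WT), 5 functional genes, and the 3 genes most correlated with each member. Of the genes this rule names, 2 are not reported here. The relation to the Dlx sum was added after values were seen. Positions and exon lengths came from GENCODE M21.

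Alternatives were RLE size factors, no filter, a minimum of 1 CPM in 3 or more libraries, DESeq2 1.42.0, limma-voom 3.58.1 with sample weights, single populations, a replicate block and leaving out each replicate.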

Additional observations from a re-analysis of the deposited data

Results flagged for a closer look

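Of 50 combinations of a gene (8 members and 2 antisense genes) and a group of 4 libraries, 2 held a library far from the rest of its group, where chance flags about 1 in 20, or 2.5. Dlx1 in Grik cKO replicate 1 was at 1.10 CPM, below 1.94 to 2.10 CPM in the other Grik cKO libraries. Dlx2 in SST WT replicate 2 was at 39.9 CPM, below 46.3 to 47.0 CPM in the other SST WT libraries.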

How the results depend on the processing

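Of 1592 member values under the alternatives, 1458 kept their direction and their side of the threshold, 3 passed it newly, 4 no longer passed and 127 changed sign. The sign changes were in 41 of 96 member results, none in a comparison of SST with a pyramidal population, and 0 of them had an adjusted p under 0.05 in either fit. Counts of called members were 8 in each SST comparison and 0 in each genotype comparison and interaction under every alternative run. In CamK against Grik the count was 4 to 6 in WT (4 outside leave-one-out) and 3 to 4 among cKO libraries. In WT, Dlx1 passed without CamK replicate 2 (1.45, adjusted p = 0.00834) or 4 (1.40, 0.0255), and Dlx5 without replicate 2 (1.22, 0.0414). Among cKO libraries, Dlx6 did not pass in limma-voom (1.66, 0.0550), under the replicate block (1.11, 0.286), or without CamK replicate 6 (1.66, 0.114) or Grik replicate 1 (1.86, 0.0563). The cause was not tested. The block changed no other member call. Same-numbered cKO and WT libraries deviated together with correlations of -0.14 to 0.30 over 6 pairs. Differently numbered pairs were not compared, so whether same-numbered libraries share more than a number was not tested. Depth limits the low values: Dlx2, Dlx5 and Dlx6 had as few as 8, 9 and 8 reads in a pyramidal library, and the called Dlx6 difference between CamK and Grik rests on 8 to 33 reads per Grik library.

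The log2 values that changed sign, none past the threshold, are given by setting. With limma-voom, CamK WT against Grik WT gave -0.28 for Dlx2. With limma-voom, cKO against WT in CamK gave -0.20 for Sox6, 0.16 for Dlx1 and 0.43 for Dlx2. With limma-voom, cKO against WT in SST gave 0.0098 for Dlx6. With limma-voom, the interaction of CamK against Grik gave -0.078 for Sox6 and 0.33 for Dlx1. With limma-voom, the interaction of CamK against SST gave 0.072 for Dlx1 and 0.36 for Dlx2. With limma-voom, the interaction of Grik against SST gave -0.0080 for Satb1. With the replicate block, cKO against WT in CamK gave 0.030 for Lhx6 and -0.32 for Dlx5. With the replicate block, cKO against WT in Grik gave 0.043 for Sox6 and 0.29 for Dlx1. With the replicate block, cKO against WT in SST gave -0.071 for Sox6, -0.17 for Dlx1, -0.14 for Dlx2 and -0.044 for Dlx5. With the replicate block, the interaction of CamK against Grik gave -0.031 for Sox6, -0.20 for Dlx2 and -0.93 for Dlx5. With the replicate block, the interaction of CamK against SST gave 0.083 for Sox6 and -0.28 for Dlx5. With the replicate block, the interaction of Grik against SST gave 0.11 for Sox6 and 0.46 for Dlx1. For Dlx5 in cKO against WT in SST, the value was -0.00022 with RLE size factors, -0.0013 with no filter, -0.013 with the CPM minimum, -4.3e-05 with DESeq2 and -0.016 with the populations alone. Leaving out 1 library at a time, CamK WT against Grik WT ranged over -0.36 to 0.26 for Lhx6 and -0.25 to 0.63 for Dlx2. In leave-one-out fits, CamK against Grik among cKO libraries ranged over -0.042 to 0.32 for Lhx6. Across single libraries left out, cKO against WT in CamK ranged over -0.29 to 0.32 for Lhx6, -0.42 to 0.47 for Dlx2, -0.28 to 0.23 for Sox6, -0.50 to 0.62 for Dlx5, -0.58 to 0.27 for Dlx1 and -0.84 to 0.19 for Dlx6. With 1 library out, cKO against WT in Grik ranged over -0.0053 to 0.080 for Satb1, -0.17 to 0.17 for Maf, -0.16 to 0.39 for Dlx5 and -0.11 to 0.43 for Dlx6. Without single libraries, cKO against WT in SST ranged over -0.0016 to 0.11 for Lhx6, -0.074 to 0.11 for Dlx5, -0.047 to 0.23 for Sox6, -0.012 to 0.10 for Satb1, -0.043 to 0.18 for Dlx2, -0.20 to 0.0088 for Maf and -0.16 to 0.025 for Dlx6. In such fits, the interaction of CamK against Grik ranged over -0.38 to 0.46 for Dlx1, -0.14 to 0.38 for Sox6, -0.096 to 0.52 for Lhx6, -0.63 to 0.49 for Dlx5 and -1.005 to 0.031 for Dlx6. When 1 library was dropped, the interaction of CamK against SST ranged over -0.33 to 0.29 for Lhx6, -0.36 to 0.17 for Sox6, -0.48 to 0.42 for Dlx2, -0.76 to 0.28 for Dlx6, -0.50 to 0.62 for Dlx5 and -0.63 to 0.22 for Dlx1. In these fits, the interaction of Grik against SST ranged over -0.051 to 0.061 for Satb1, -0.037 to 0.29 for Maf, -0.15 to 0.39 for Dlx5 and -0.024 to 0.52 for Dlx6.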
